A study of Caenorhabditis elegans with 30 samples.

Results

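Transcript levels of 10 *Caenorhabditis elegans* genes for recombination and mismatch repair were followed in nematodes exposed to thymidine analogues. They are *rad-51* and *brc-2* for strand exchange, *brc-1* and *brd-1* for the BRCA1-BARD1 ubiquitin ligase, *polq-1* for end joining by polymerase theta, *msh-2*, *msh-6*, *mlh-1* and *pms-2* for mismatch repair, and *exo-1*, an exonuclease that serves both pathways. They were chosen by name and function with earlier results of these data known, and are 10 of the 46726 genes in the count files. Nematodes were raised to the larval L4 stage and moved for 24h or 72h to plates that held an analogue (AZT, d4T or FLT at 100μM), DMSO at 0.033%, or no addition. The analogues had been dissolved in DMSO, so that DMSO was the control of each of them, and DMSO was in turn compared with unexposed nematodes. AZT, d4T and FLT differ in the sugar, which bears an azido group, a double bond or a fluorine. All of them lack the sugar hydroxyl to which the next nucleotide of a DNA chain is joined. Each of the 10 groups held 3 libraries of whole worms, described as biological replicates. Nothing in the labels ties a library to its own plate, so the p-values measure the spread between these libraries. No strain is given for these cultures in the labels, and the methods name N2 Bristol as the wild type. Worms were sieved away from their eggs and food for freezing, and those kept for 72h were transferred daily.

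Homologous recombination copies the sequence lost at a double-strand break from an intact DNA molecule. Resection by nucleases such as EXO-1 exposes single strands, BRC-2 helps to load RAD-51 on them, and RAD-51 filaments search for the matching sequence. BRC-1 and BRD-1 form a ubiquitin ligase that favours repair from the sister chromatid in the nematode germline. Polymerase theta joins ends that share a few bases and leaves small deletions. Mismatch repair begins when MSH-2 and MSH-6 bind a mismatched base, continues with the MLH-1 and PMS-2 complex, and removes the newly made strand with EXO-1. In an adult nematode the somatic cells no longer divide, and the germline is its own tissue in which DNA is replicated and meiotic breaks are repaired. Adults can also carry embryos in the uterus.

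All 10 genes are protein-coding. On the WBcel235 build *rad-51* (WBGene00004297) lies on chromosome IV from 10281634 to 10284244, and *brc-2* (WBGene00020316) on chromosome III from 6900568 to 6903106. *Brc-1* (WBGene00000264) spans 3853102 to 3862968 and *brd-1* (WBGene00000265) 6885207 to 6889504, both on chromosome III. *Polq-1* (WBGene00020964) spans 5791119 to 5803160 of chromosome III. *Msh-2* (WBGene00003418, 3694296 to 3697551) and *msh-6* (WBGene00003422, 3449326 to 3462174) are on chromosome I. *Mlh-1* (WBGene00003373, 13509301 to 13514570) and *exo-1* (WBGene00009731, 13423514 to 13426204) are on chromosome III, and *pms-2* (WBGene00004064, 11566801 to 11570601) is on chromosome V. Counts for each gene summed over all of its exons. An exon of another gene shared 38 bases with *brc-2* (2.67% of its exon length), 80 with *pms-2* (2.50%) and 21 with *exo-1* (0.933%), and whether reads were counted by strand is not given in the sources used here. The other 7 genes shared no exon base with a neighbour. A gene was read 291 to 5792 times in a library (median 1512), which gives a counting error of 5.86 to 1.31%. In 11 of the 100 combinations of a gene and a group the SD between libraries was below counting error, and 5 of these were in DMSO 72h.

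Total counts on genes were 11.3 to 30.6M per library (median 24.0M), and the members took 0.0357 to 0.108% of them. Levels are given as CPM, counts scaled to a common library total with TMM factors. All 30 libraries entered 1 fit, and edgeR's quasi-likelihood test with Benjamini-Hochberg adjustment over 16048 genes called a change where the adjusted p was below 0.01. Members at an unadjusted p under 0.05 are counted beside this and are not calls. The number of all genes at that threshold is given for AZT and d4T against DMSO at 24h alone. Elsewhere such a count has no background beside it. By the file names every exposure had its own sequencing lane, which its 24h and 72h libraries shared, and the FLT lane was on a different flow cell. Lane and exposure therefore cannot be told apart at a given time. The library labelled d4T 24h replicate 2 stood apart. Across all genes it correlated at 0.923 with its own group and at 0.987 with AZT 24h. The other d4T 24h libraries had their best match in AZT 72h (0.956) and FLT 24h (0.971). Its values are therefore given by themselves, and results that rest on it are given with and without it. Ribosomal RNA genes took 5.78% of counts in AZT 72h replicate 1 and 4.99% in d4T 24h replicate 1, against at most 2.37% elsewhere. These are whole worms, in which fewer germ cells, less RNA per germ cell and a changed content of embryos cannot be told apart. Germline, oocyte, somatic and larval marker genes were detected. Of 16 germline markers *nos-2* had 0 counts in every library, and of 14 sperm markers *msp-31* and *msp-45* had none.

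Per kilobase of exon, *rad-51* was the most abundant of the 10 transcripts in 29 of 30 libraries, with a median of 73.1 CPM per kb and a range of 26.0 to 105. *Msh-2* had a median of 49.7 CPM per kb, *exo-1* 47.0 and *msh-6* 43.2. Then came *brc-2* with 34.6, *mlh-1* with 26.0, *brd-1* with 23.2, *brc-1* with 21.9 and *pms-2* with 20.4 CPM per kb. *Polq-1* was lowest in 29 of 30 libraries, with a median of 18.3 CPM per kb and a range of 6.58 to 21.4. In the mean over libraries *rad-51* reached the 84.7 percentile of all genes tested on this scale and *polq-1* the 60.9 percentile.

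The order of the groups was much alike from gene to gene. With all libraries, FLT 24h had the lowest mean of 6 members and AZT 72h that of the other 4, which were *brc-2*, *polq-1*, *msh-2* and *pms-2*. The d4T 24h means include the library labelled replicate 2. For *rad-51*, *brc-1*, *brc-2*, *brd-1*, *msh-2* and *exo-1* both other d4T 24h libraries lay below the lowest of these means. They had 39.7 and 49.1 CPM of *rad-51*, so the low end of the order rests on replicate 2 for these genes. DMSO 72h had the highest mean of 5 members, namely *rad-51*, *brc-2*, *brd-1*, *msh-6* and *exo-1*. The highest mean of *msh-2* and *pms-2* was in unexposed nematodes at 24h, that of *brc-1* in AZT 24h, that of *polq-1* in unexposed nematodes at 72h and that of *mlh-1* in FLT 72h. For *rad-51* the order by mean CPM ran from FLT 24h (64.9 ± 16.7, SD, n = 3) and AZT 72h (65.9 ± 10.8) over d4T 24h (77.1 ± 56.9) and DMSO 24h (82 ± 8.49) to unexposed nematodes at 24h (108 ± 8.8). It went on with d4T 72h (109 ± 4.04), unexposed nematodes at 72h (128 ± 14.5), AZT 24h (137 ± 9.74), FLT 72h (138 ± 9.91) and DMSO 72h (159 ± 1.96). Neighbours in this order had libraries apart at 3 of 9 steps, below unexposed 24h, below unexposed 72h and below DMSO 72h. For the other genes 1 to 3 of the 9 steps were apart.

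**Figure D1:**
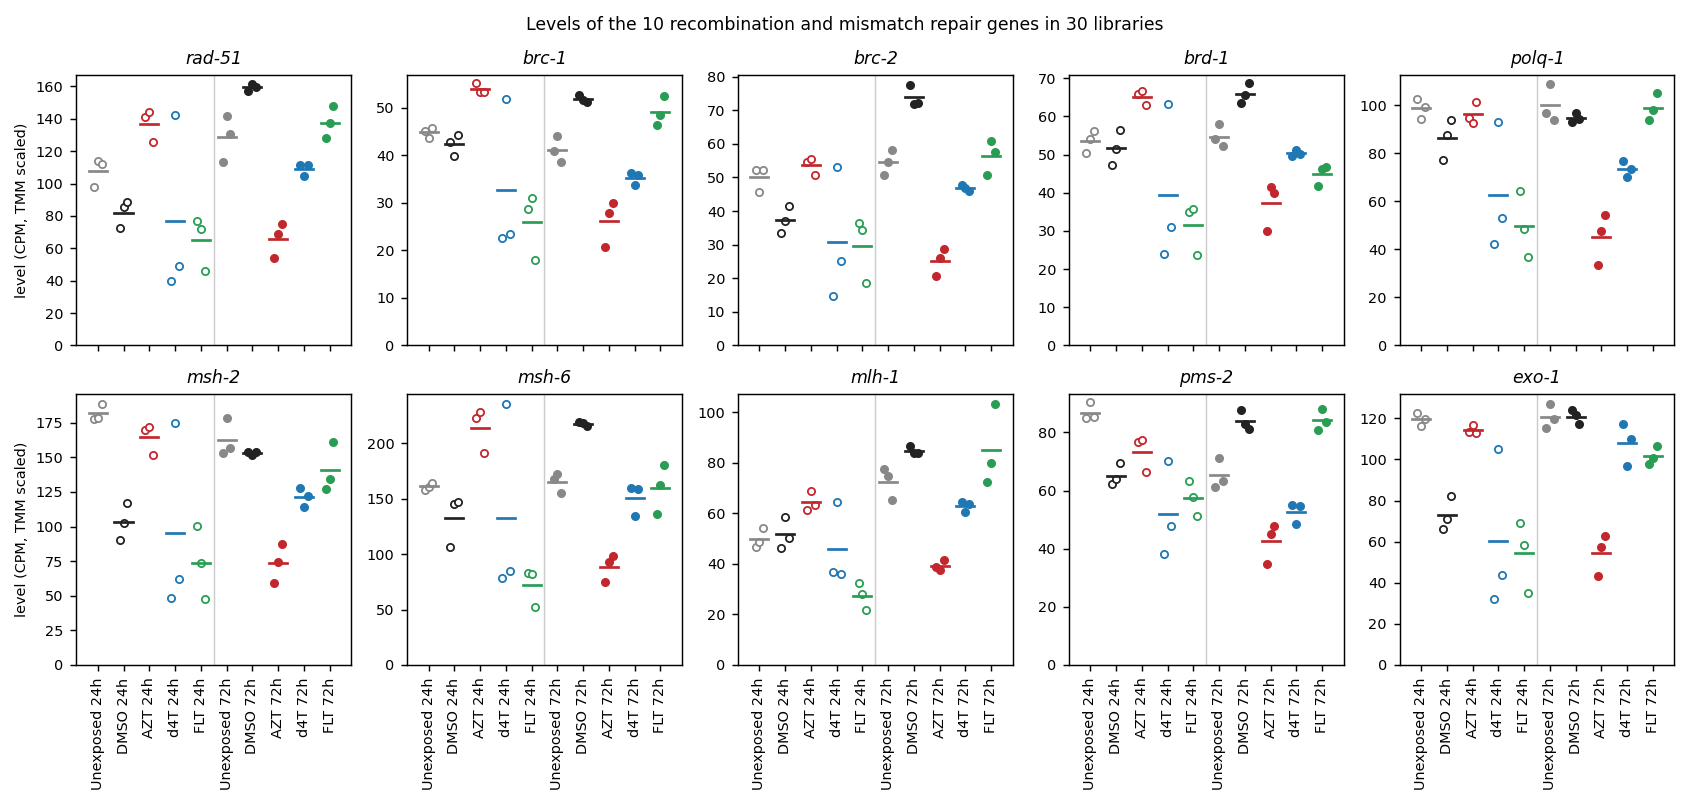
Level of each of the 10 genes in CPM with TMM scaling (y axis, from 0) in each of 30 libraries. Points are libraries, open at 24h and filled at 72h, lines are means of 3, and colours mark the exposure. The AZT 72h libraries lie below every DMSO 72h library in all 10 panels, and one open blue point, the library labelled d4T 24h replicate 2, lies above the other d4T 24h libraries in each.

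Spread within groups was uneven. The ratio of the highest to the lowest library of a group had a median over the members of 1.04 in DMSO 72h, 1.08 in unexposed 24h, 1.08 in d4T 72h and 1.11 in AZT 24h. It was 1.39 in AZT 72h, 1.70 in FLT 24h and 2.83 in d4T 24h. In FLT 24h replicate 3 was the lowest library for all 10 genes. With all groups in 1 fit, the wide spread of d4T 24h entered the error of every comparison.

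After 72h with AZT all 10 genes fell, where 21.6% of all genes tested fell in that comparison. Falls ranged from 1.77-fold for *brd-1* to 2.94-fold for *brc-2*, with a median log2 fold change of -1.09 beside 0.36 over all genes tested. Each AZT 72h library lay below each DMSO 72h library for all 10 members, which held for 31.3% of all genes tested. Without AZT 72h replicate 1 8 of 10 passed (15.6% of genes), and *brd-1* (-0.72) and *msh-2* (-0.94) on the log2 scale did not. Scaled by library totals 8 passed (13.8% of genes, with 35.9% higher in place of 27.2%). Reads not counted for any gene, for whatever reason, took 26.5, 19.0 and 17.4% of the AZT 72h libraries. They took at most 10.9% of those with DMSO, and their part in the result was not tested.

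For strand exchange, *rad-51* had 53.9, 69.1 and 74.8 CPM in the 3 AZT 72h libraries and 157, 161 and 159.5 CPM with DMSO. The highest AZT library thus held less than any DMSO library, and the log2 fold change was -1.27 (SE 0.28, edgeR adjusted p = 0.000458). *Brc-2* went from 77.5, 71.8 and 72.2 CPM with DMSO to 20.7, 25.9 and 28.8 with AZT. Its log2 fold change of -1.55 (SE 0.27, edgeR adjusted p = 4.2e-05) was the most negative of the 10, and its 95% interval of -2.12 to -0.99 overlapped those of the other 9. Estimates for the ubiquitin ligase were nearer to 0. *Brc-1* had 20.8, 27.9 and 29.9 CPM with AZT and 52.8, 51.8 and 51.2 with DMSO, and fell by 0.99 on the log2 scale (SE 0.22, edgeR adjusted p = 0.000447). *Brd-1* had 30.1, 41.6 and 39.9 CPM against 63.5, 65.7 and 68.7, with a log2 fold change of -0.83 (SE 0.22, edgeR adjusted p = 0.00209).

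*Polq-1*, the polymerase of end joining, had 33.5, 47.8 and 54.3 CPM in AZT 72h and 93, 97 and 94.3 in DMSO 72h. Its log2 fold change was -1.07 (SE 0.21, edgeR adjusted p = 0.000147). Among the mismatch binding genes *msh-2* had 59.5, 74.7 and 87.7 CPM with AZT and 154, 152 and 154 with DMSO, and *msh-6* had 75.3, 92.9 and 98 and 219.6, 218 and 216. Their log2 fold changes were -1.05 (SE 0.29, edgeR adjusted p = 0.00348) and -1.29 (SE 0.27, edgeR adjusted p = 0.000225). The MutL genes, whose products act after mismatch binding, had the smallest standard errors. *Mlh-1* had 38.8, 37.5 and 41.5 CPM with AZT against 86.4, 83.7 and 83.9 with DMSO, a log2 fold change of -1.11 (SE 0.18, edgeR adjusted p = 1.8e-05). *Pms-2* had 34.9, 45.2 and 47.9 against 87.7, 82.9 and 81.3 CPM, a log2 fold change of -0.98 (SE 0.16, edgeR adjusted p = 1.94e-05). For *exo-1* the AZT libraries gave 43.2, 57.6 and 62.9 CPM and the DMSO libraries 124, 122 and 117, a log2 fold change of -1.15 (SE 0.27, edgeR adjusted p = 0.000729).

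Other repair genes moved the same way at this time. Of 29 other genes for double-strand break and recombination repair 26 fell and 0 rose (median log2 fold change -1.12). The lowest adjusted p among them belonged to the nuclease genes *mus-81* (-1.45), *ercc-1* (-1.32) and *slx-1* (-1.57). Of 18 genes for translesion synthesis and crosslink or base repair 16 fell (median -1.08), led by *rev-3*, a subunit of a translesion polymerase (-1.56), the clamp loader *rfc-3* (-1.69) and the glycosylase *nth-1* (-1.50). Of 18 genes tested for meiotic breaks and crossovers 15 fell (median -1.25), with *pch-2* (-1.80), *dsb-1* (-1.85) and the cohesin *rec-8* (-1.25) in front. These medians lie near that of the members, -1.09.

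Markers of other cells and stages moved beside the members in AZT 72h. Of 16 oocyte markers 13 fell (median log2 fold change -1.47), and their summed level was 4412 to 5957 CPM against 14000 to 14180 with DMSO. Of 15 germline markers tested 7 fell (median -0.71, summed 2329 to 3224 against 4214 to 4902 CPM), and of 20 germ cell cycle genes 7 fell (median -0.72). Of 14 somatic markers tested 10 rose (median 1.55, summed 1322 to 1709 against 656 to 702 CPM), among them the muscle gene *unc-15* (1.42). Of 15 larval cuticle and moulting genes 14 rose (median 2.67, summed 910.3 to 1185 against 181 to 224 CPM). Of 9 early embryo markers tested 4 rose and 1, *pal-1* (-1.36), fell (median 0.18). Among those that rose, *hlh-27* (mean 0.23 CPM with AZT and 0 with DMSO) and *sdz-1* (1.19 and 0.20) were near 0 CPM. *Nob-1* had 9.35 and 2.79 CPM. *Pal-1* went from a mean of 305.7 to 119.1 CPM and made up most of the list's summed level of 127 to 179 against 326 to 342 CPM. Sperm markers summed to 15.4 to 17.8 against 7.62 to 13 CPM, and 0 of 10 tested passed edgeR's test (1 at an unadjusted p under 0.05). The part of these cells and stages in the result was not tested.

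**Figure D2:**
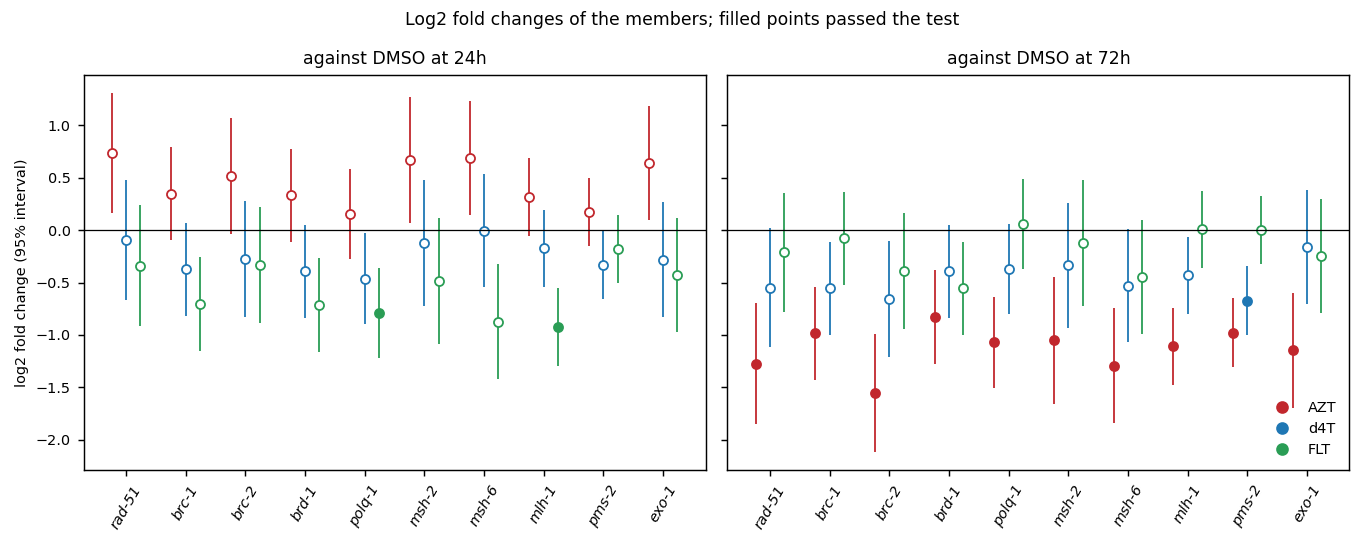
Log2 fold change against DMSO (y axis) of each of the 10 genes (x axis) at 24h (left) and 72h (right). Points are estimates of edgeR's fit with 95% intervals, coloured by analogue, and filled where the adjusted p was under 0.01. All 10 red points at 72h are filled and below 0, while the 10 red points at 24h are open and above 0.

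After 24h with AZT no member passed the test, where 10.2% of all genes tested did. EdgeR's quasi-likelihood test gave 4 as higher at an unadjusted p under 0.05 (*rad-51*, *msh-2*, *msh-6* and *exo-1*). Of all 16048 genes tested 3060 were higher and 3792 lower at that threshold. DESeq2 called 0 members (17.2% of genes in either direction), and a fit of AZT and DMSO libraries alone called 4 as higher (13.2% of genes). All 10 log2 fold changes were positive, from 0.16 for *polq-1* to 0.74 for *rad-51* (median 0.43, against -0.02 over all genes tested). *Rad-51* had 141, 144 and 126 CPM with AZT and 72.4, 85.2 and 88.5 with DMSO (95% interval of the log2 fold change 0.16 to 1.31, edgeR adjusted p = 0.0499). *Msh-6* had 223, 228 and 191 CPM against 106, 145 and 147, and *exo-1* 113, 117 and 113 against 66.1, 71 and 82.1. Every AZT library lay above every DMSO library for these genes, and for 8 of the 10 members in all, which held for 29.5% of all genes tested. *Polq-1* and *pms-2* were the members whose libraries overlapped. *Pms-2* had 76.6, 77.3 and 66.5 CPM with AZT and 62.2, 64 and 69.3 with DMSO, and *polq-1* 94.7, 92.6 and 101 and 77, 87.7 and 94. In the same comparison 16 of 16 oocyte markers were positive (median log2 fold change 0.96), and 0 passed edgeR's test (14 at an unadjusted p under 0.05). So were 20 of 20 germ cell cycle genes (0.56), 29 of 29 other recombination genes (0.40) and 14 of 15 germline markers (0.38), with 0 called in each. Of 15 larval cuticle genes 5 fell and 0 rose (median -1.51). Their part in the members' values was not tested. Against unexposed nematodes in place of DMSO, 6 of the log2 differences at 24h were positive and 4 negative, from -0.24 for *pms-2* to 0.41 for *msh-6*. Of these 0 passed edgeR's test (1, *mlh-1*, at an unadjusted p under 0.05), where 0.704% of all genes did.

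The AZT effect at 72h was lower than that at 24h for all 10 members, where 23.7% of genes tested had such a lower effect. This difference of log2 fold changes was -2.08 for *brc-2* (SE 0.38, edgeR adjusted p = 6.01e-05), -2.01 for *rad-51* (SE 0.40, edgeR adjusted p = 0.000123) and -1.98 for *msh-6* (SE 0.38, edgeR adjusted p = 7.96e-05). It was -1.79 for *exo-1*, -1.72 for *msh-2*, -1.43 for *mlh-1* and -1.33 for *brc-1*. The smallest differences were those of *polq-1* (-1.23), *brd-1* (-1.16) and *pms-2* (-1.15, SE 0.23, edgeR adjusted p = 0.000115). With unexposed nematodes as the control all 10 differences stayed negative (median -1.09), 9 had an unadjusted p under 0.05, and 2 passed edgeR's test, *polq-1* and *mlh-1* (6.57% of genes). The members' fall at 72h itself passed for 8 of 10 against unexposed nematodes (13.2% of genes), the others being *brc-1* (-0.65) and *brd-1* (-0.56) on the log2 scale.

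With FLT calls were made at 24h and not at 72h, though the difference between the times did not pass for any member. After 24h *mlh-1* and *polq-1* fell, 2 of 10 members, where 9.39% of all genes tested fell. *Mlh-1* had 32.2, 28.1 and 21.6 CPM with FLT and 46.1, 58.7 and 50.3 with DMSO, so that the highest FLT library lay below the lowest DMSO library, and was 1.89-fold lower (log2 -0.92, SE 0.18, edgeR adjusted p = 0.000679). *Polq-1* had 64.4, 48.3 and 37 CPM against 77, 87.7 and 94 and was 1.73-fold lower (log2 -0.79, SE 0.21, edgeR adjusted p = 0.00694). Leaving out FLT 24h replicate 3 (4.89% of genes lower) gave -0.69 on the log2 scale for *polq-1* (edgeR adjusted p = 0.0489) and -0.85 for *mlh-1* (edgeR adjusted p = 0.00905). With DMSO 24h replicate 3 left out 1 passed (6.42% of genes lower), and with FLT 24h replicate 2 left out 4 did (9.69% of genes lower). Without DMSO 24h replicate 2 edgeR called 0 members (5 at an unadjusted p under 0.05, 3.91% of genes lower), with an edgeR adjusted p of 0.0101 for *mlh-1*. The fit of FLT and DMSO libraries of 24h alone also called 0 (5 at an unadjusted p under 0.05, 4.5% of genes lower, edgeR adjusted p = 0.0105 for *mlh-1*). DESeq2 called 5 as lower (12.9% of genes).

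The remaining 8 members had negative log2 values with FLT at 24h that did not pass. *Brc-1* (28.7, 31.1 and 18.1 CPM with FLT, 42.9, 39.9 and 44.3 with DMSO), *brd-1* (35, 35.8 and 23.6 and 47.3, 51.4 and 56.4) and *msh-6* (83.1, 82.5 and 52.2 and 106, 145 and 147) had libraries apart as well. Their log2 values were -0.71, -0.72 and -0.87, with edgeR adjusted p of 0.0176, 0.0163 and 0.0163. That made 5 members whose FLT libraries were all lower, against 19% of all genes tested. *Pms-2*, the partner of *mlh-1*, had 63.3, 57.9 and 51.3 CPM with FLT and 62.2, 64 and 69.3 with DMSO, and its log2 value of -0.18 (95% interval -0.51 to 0.15) was the closest to 0 of the 10. Against unexposed nematodes 8 members were lower at 24h with FLT (12.3% of genes), all but *rad-51* (-0.73) and *brc-2* (-0.75).

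Beside these values, 10 of 15 germline markers tested fell with FLT at 24h (median log2 fold change -1.12, summed 1549 to 3309 against 4709 to 6159 CPM), among them *gld-1* (-1.37), a translational repressor of the germline. Of 16 oocyte markers 5 fell (median -1.29, summed 1402 to 3640 against 4819 to 7998 CPM), and of the 29 other recombination genes 6 fell (median -0.47), with *parp-1* (-1.46), *hsr-9* (-1.13) and the helicase *him-6* (-1.14) in front. Larval cuticle genes summed to 552 to 1614 against 599.8 to 984 CPM, with a median log2 fold change of 0.73 and 12 of 15 values positive, and 1 of 15 fell. The part of these cells in the members' values was not tested.

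After 72h with FLT no member passed, where 8.06% of all genes tested did. EdgeR gave 1 (*brd-1*) below an unadjusted p of 0.05, and 0 passed with DESeq2 (12.3% of genes in either direction). *Brd-1* had 41.8, 46.2 and 46.6 CPM with FLT against 63.5, 65.7 and 68.7 with DMSO, libraries that did not overlap, with a log2 value of -0.56 (edgeR adjusted p = 0.0806). Its partner *brc-1* had 46.5, 48.5 and 52.5 against 52.8, 51.8 and 51.2 CPM, and a log2 value of -0.08 (95% interval -0.52 to 0.36). As for *brd-1*, every FLT library lay below every DMSO library for *rad-51*, *brc-2*, *msh-6* and *exo-1*. Their highest FLT libraries had 148, 60.8, 181 and 107 CPM, and their lowest DMSO libraries 157, 71.8, 215.5 and 117. The share of all genes with libraries apart in this comparison is not given here. *Mlh-1* (0.01, 95% interval -0.36 to 0.37), *pms-2* (0.00, -0.32 to 0.33) and *polq-1* (0.06, -0.37 to 0.49) on the log2 scale were nearest to DMSO. The difference between the FLT effects at 72h and 24h passed for 0 members (2, *polq-1* and *mlh-1*, at an unadjusted p under 0.05, 9.73% of all genes called). For *mlh-1* it was 0.93 (edgeR adjusted p = 0.0111), and DESeq2 called 1 member as higher (9.11% of genes).

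With d4T at 24h the outcome rested on 1 library. With all 3 libraries 0 members passed edgeR's test, where 6.31% of all genes did, and 0 passed by DESeq2 (9.81% of genes). EdgeR gave 2, *polq-1* and *pms-2*, as lower at an unadjusted p under 0.05. Of all 16048 genes tested 1499 were lower and 2741 higher at that threshold. Log2 values ran from -0.46 for *polq-1* to -0.0032 for *msh-6*. *Msh-6* had 78.1, 236 and 84.5 CPM in the d4T libraries against 106, 145 and 147 with DMSO. *Exo-1* had 31.9, 105 and 43.8 CPM against 66.1, 71 and 82.1, and *rad-51* 39.7, 143 and 49.1 against 72.4, 85.2 and 88.5. In all 10 members the other d4T libraries lay below every DMSO library. The library labelled d4T 24h replicate 2 lay above every DMSO library for all members except *polq-1*, for which it lay among them. Without it all 10 fell (22.2% of all genes tested), from -0.53 for *mlh-1* to -0.97 for *exo-1* on the log2 scale (edgeR adjusted p = 0.00546 and 0.000263). In replicate 2 *brd-1* had 63.2 CPM and *msh-2* 175 CPM, beside 65.8, 66.6 and 63.1 and 170.1, 172 and 151 CPM in AZT 24h. Reads not counted for any gene took 25.3 and 20.0% of d4T 24h replicates 1 and 3 and 14.7% of replicate 2. With DMSO they took 17.7 to 19.0%. Oocyte markers summed to 16280 CPM in replicate 2 and to 3303 and 3676 CPM in the other d4T libraries. Their part in these values was not tested.

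After 72h with d4T the libraries were close together, and 1 of 10 members fell, where 5.86% of all genes tested fell. This was *pms-2*, with 54.9, 48.4 and 54.7 CPM against 87.7, 82.9 and 81.3 with DMSO (log2 -0.67, SE 0.16, edgeR adjusted p = 0.00358). With any 1 of the 6 libraries of that comparison left out it no longer passed (2.78 to 3.8% of genes lower). All 10 log2 values were negative, down to -0.66 for *brc-2*, and 9 of the 10 members had every d4T library below every DMSO library, as did 26.7% of all genes tested. *Brc-2* had 47.8, 46.9 and 45.9 CPM against 77.5, 71.8 and 72.2, and *rad-51* 112, 104 and 111 against 157, 161 and 159.5. *Exo-1* overlapped, with 117, 96.9 and 109.8 against 124, 122 and 117 CPM. A fit of the d4T and DMSO libraries of 72h alone, whose spread was small, called 9 members as lower (24.6% of genes tested), all but *exo-1*. Against unexposed nematodes no member passed at 72h (0 by edgeR, 1 at an unadjusted p under 0.05), where 0.206% of all genes did. The d4T effect did not pass for a difference between the times in any member (0 by edgeR, 0 at an unadjusted p under 0.05), where 8.01% of all genes did. By DESeq2 0 passed (12% of genes). Without the library labelled d4T 24h replicate 2 edgeR also called 0 (3 at an unadjusted p under 0.05), where 14.8% of all genes passed.

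The analogues were compared with each other at the same dose and time in 6 pairs. AZT stood above FLT at 24h for 8 members (17.4% of all genes tested), and all 10 had every AZT library above every FLT library, as did 28.8% of genes. *Msh-6* showed the widest gap, 2.95-fold (log2 1.56, 95% interval 1.01 to 2.11, edgeR adjusted p = 0.000139 over all genes and pairs), and *mlh-1* followed with 2.36-fold. *Brc-2* (0.85, 95% interval 0.29 to 1.41) and *pms-2* (0.35, 0.03 to 0.68) on the log2 scale did not pass. With FLT 24h replicate 3 left out 5 members passed (11.9% of genes). In the same pair 16 of 16 oocyte markers (median log2 difference 2.15), 13 of 15 germline markers (1.51) and 17 of 20 germ cell cycle genes (1.32) were higher with AZT, and 10 of 15 larval cuticle genes were lower (-2.55). Their part in the result was not tested.

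At 72h the same pair had the opposite order. AZT was below FLT for 9 members (18.3% of all genes tested), and the libraries of all 10 were apart, as for 26.7% of genes. *Brc-2* was lowest against FLT (-1.17 on the log2 scale, 95% interval -1.73 to -0.61), and *polq-1* (-1.13) and *mlh-1* (-1.12) were close to it. *Brd-1* did not pass, with 30.1, 41.6 and 39.9 CPM with AZT and 41.8, 46.2 and 46.6 with FLT (-0.27, 95% interval -0.72 to 0.18). Adjusted over all genes and the 6 pairs together, 6 members passed (16.7% of genes), without AZT 72h replicate 1 4 did (12% of genes), and without FLT 72h replicate 3 5 did (14.5% of genes). Of oocyte markers 6 of 16 were lower with AZT (median -1.18), and of larval cuticle genes 10 of 15 were higher (1.65), and their part was not tested.

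Between AZT and d4T, which differ by the azido group and the double bond, 3 members were higher with AZT at 24h (9.49% of all genes tested), namely *brc-1* (0.72), *brd-1* (0.73) and *exo-1* (0.92). Without the library labelled d4T 24h replicate 2 all 10 were higher (31% of genes), from 0.83 for *pms-2* to 1.68 for *rad-51*. With any other library of the 2 groups left out edgeR called 0 (4 to 10 at an unadjusted p under 0.05, 0.0796 to 2.4% of genes higher). Over the 6 pairs together *exo-1* alone passed (7.74% of genes, edgeR adjusted p = 0.00861). At 72h *mlh-1* (-0.68, edgeR adjusted p = 0.00801) and *exo-1* (-0.98, edgeR adjusted p = 0.00918) were lower with AZT than with d4T, 2 of 10 where 3.98% of all genes were. All 10 had their AZT libraries below those with d4T (30.9% of genes), and *pms-2* had the smallest gap (-0.30, 95% interval -0.63 to 0.02). With any library of the 2 groups left out edgeR called 0 (0.424 to 5.2% of genes lower).

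D4T and FLT had 1 called difference at each time. At 24h *mlh-1* was 1.68-fold higher with d4T (edgeR adjusted p = 0.00716), 1 of 10 where 4.38% of all genes tested were higher, and without the library labelled d4T 24h replicate 2 it did not pass (log2 0.39, 4.39% of genes higher, edgeR adjusted p = 0.0547). It was also lost without FLT 24h replicate 2 or 3. With all libraries the other 9 log2 differences ran from -0.15 for *pms-2* to 0.87 for *msh-6*, with 95% intervals from -0.50 to 1.42 at their widest ends. Without d4T 24h replicate 2 edgeR called 0 members (6 at an unadjusted p under 0.05), with 13% of genes lower in place of 1.45%. Both other d4T libraries lay below the FLT 24h mean for *rad-51*, *brc-1*, *brc-2*, *brd-1*, *msh-2*, *pms-2* and *exo-1*. They lay above it for *msh-6* and *mlh-1*, and on either side of it for *polq-1*. At 72h *pms-2* was lower with d4T, with 54.9, 48.4 and 54.7 CPM against 81, 88 and 83.6 with FLT (log2 -0.68, edgeR adjusted p = 0.00317), 1 of 10 where 5.43% of all genes were lower. With any d4T 72h library, FLT 72h replicate 2 or FLT 72h replicate 3 left out this call was lost as well (3.09 to 4.34% of genes lower over the 6 omissions). The 95% intervals of the other 9 members at 72h lay between -0.92 (*brc-1*) and 0.63 (*exo-1*) on the log2 scale.

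DMSO itself was compared with nothing added. At 24h 0 members passed edgeR's test (3 at an unadjusted p under 0.05), where 12.6% of all genes tested did, and 0 passed by DESeq2 (19.1% of genes). For 7 of 10 every DMSO library lay below every unexposed library (25.2% of genes). *Msh-2* had 90.4, 102 and 117 CPM with DMSO and 178, 179 and 189 unexposed (log2 -0.81, edgeR adjusted p = 0.0381). *Exo-1* had 66.1, 71 and 82.1 against 123, 116 and 119.9 CPM (-0.71, edgeR adjusted p = 0.0447), and *pms-2* 62.2, 64 and 69.3 against 84.8, 90.4 and 85.2. Larval cuticle genes summed to 599.8 to 984 CPM with DMSO at 24h and 213 to 312 unexposed, and germ cell cycle genes to 3834 to 4616 and 5135 to 5722. Sums overlapped for oocyte markers (4819 to 7998 and 6511 to 8097) and germline markers (4709 to 6159 and 5046 to 5544). The part of these cells and stages was not tested. At 72h 0 passed as well (1, *pms-2*, at an unadjusted p under 0.05), where 11.7% of all genes did, and 0 passed by DESeq2 (15.7% of genes). For 7 members every DMSO library lay above every unexposed one (26.2% of genes). In fits of the 2 groups of a time alone 3 members were lower with DMSO at 24h (16.6% of genes) and 6 higher at 72h (21.7%). *Rad-51* at 72h had 157, 161 and 159.5 CPM with DMSO and 113, 142 and 130.5 unexposed.

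Time changed the members in some exposures. In unexposed nematodes 0 members passed edgeR's test between 24h and 72h, where 17.7% of all genes did, and 0 passed by DESeq2 (21.9% of genes). At an unadjusted p under 0.05 edgeR gave 2, *mlh-1* with 0.54 and *pms-2* with -0.41 on the log2 scale. With DMSO *brc-2* (0.98), *rad-51* (0.96) and *mlh-1* (0.71) rose, 3 of 10 where 13.9% of all genes rose, and 0 to 2 did so with 1 library left out (6.85 to 12.7% of genes). With AZT all 10 fell, where 24.1% of all genes fell, from -0.71 for *mlh-1* to -1.27 for *msh-6*, 7 did without AZT 72h replicate 1 (17.3% of genes), and 3 did with scaling by library totals (9.7%). With FLT 8 rose, where 16.2% of all genes did. *Mlh-1* rose most, from 32.2, 28.1 and 21.6 CPM to 72.2, 80.1 and 103 (3.11-fold, edgeR adjusted p = 2.77e-07), and *brd-1* (0.51) and *msh-2* (0.93) did not pass. Without FLT 24h replicate 3 2 rose (9.88% of genes), and without FLT 72h replicate 2 or 3 5 and 4 rose (12.5 and 10.1% of genes). Over the same times with FLT 16 of 16 oocyte markers rose (median 2.11), as did 12 of 20 germ cell cycle genes (0.95), and 8 of 15 larval cuticle genes fell (-1.61), and their part was not tested. With d4T 0 passed with all libraries (3 at an unadjusted p under 0.05), where 23.3% of all genes did, and 0 passed by DESeq2 (28.8% of genes). Without the library labelled d4T 24h replicate 2 9 rose (24.7% of genes), all but *pms-2* (0.32).

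Ratios of partners were formed within each library, which removes what both share. *Rad-51* over *brc-2* had a mean log2 ratio of CPM between 1.11 and 1.39 in all 10 groups. *Brc-1* over *brd-1* lay between -0.51 and -0.25 in 9 groups and at 0.13 in FLT 72h, where the 3 libraries gave 0.07 to 0.17, above every other library. *Msh-2* over *msh-6* was 0.17 in unexposed nematodes at 24h (libraries 0.15 to 0.20) and -0.36 with DMSO at 24h (-0.51 to -0.23). At 72h it was -0.02 in unexposed nematodes and -0.51 with DMSO. *Mlh-1* over *pms-2* varied most. It was -1.09 in FLT 24h (libraries -1.25 to -0.97) and -0.80 in unexposed nematodes at 24h (-0.89 to -0.66), and 0.15 in unexposed nematodes at 72h (0.05 to 0.34) and 0.26 in d4T 72h (0.22 to 0.32). No test was run on these ratios.

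**Figure D3:**
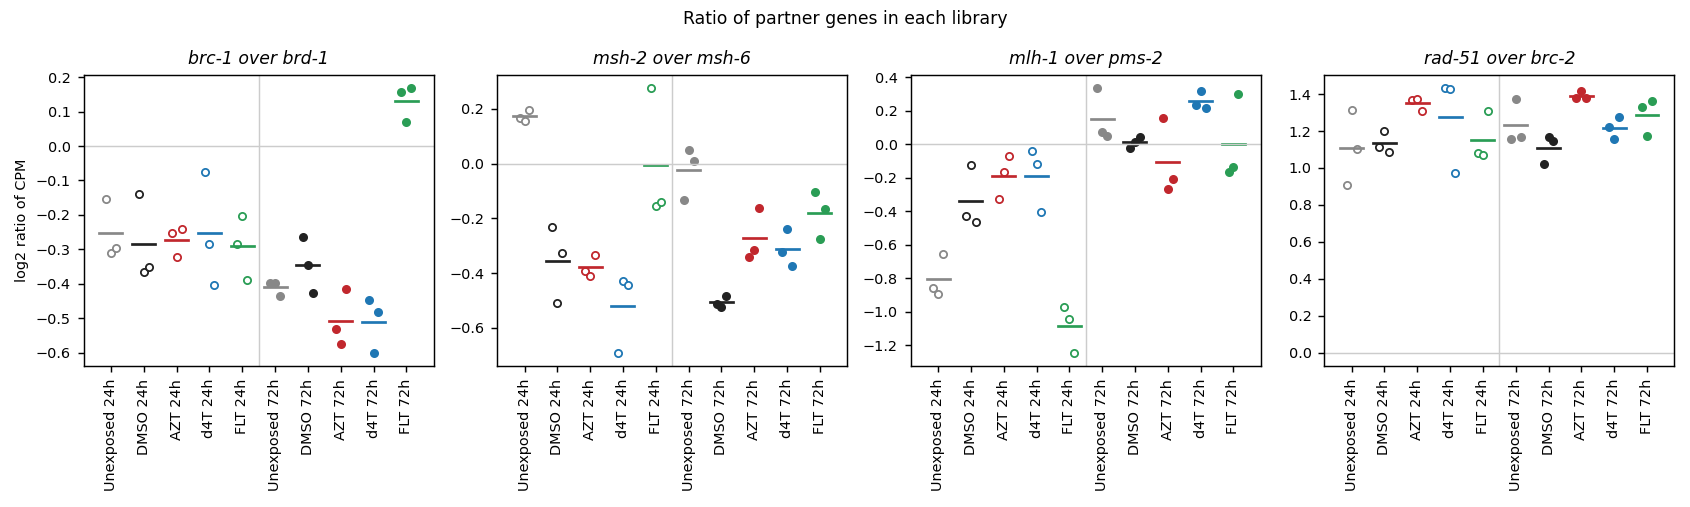
Log2 ratio of CPM (y axis) of 4 pairs of partner genes in each library, by group (x axis). Points are libraries, open at 24h and filled at 72h, lines are means of 3, and each panel has its own scale. *Brc-1* over *brd-1* is above 0 in FLT 72h alone, and *mlh-1* over *pms-2* is lowest in FLT 24h, at -1.25 to -0.97.

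Over the 30 libraries the 10 genes varied together. Pearson correlations of log2 CPM between members ran from 0.603 (*mlh-1* with *pms-2*) to 0.972 (*msh-2* with *exo-1*), with a median of 0.890 over 45 pairs. Taken as deviations from the group means they ran from 0.660 to 0.981 (median 0.909). These libraries share lanes, groups and their content of germline, so the values are given as a description. The mean log2 level of the members correlated at 0.994 with the mean of the 29 other recombination genes, at 0.969 with the meiotic genes, at 0.929 with oocyte markers and at 0.780 with germline markers. With larval cuticle genes it correlated at -0.932 and with somatic markers at -0.898. Early embryo markers gave 0.151 and sperm markers, which were near 0 CPM, -0.700. Genes for translesion synthesis and crosslink or base repair gave 0.986, and germ cell cycle genes 0.929. As deviations from the group means, early embryo markers gave 0.818, germline markers 0.929, oocyte markers 0.974 and germ cell cycle genes 0.978. The other recombination genes then gave 0.9905, translesion genes 0.99, meiotic genes 0.964, sperm markers -0.555, somatic markers -0.866 and larval cuticle genes -0.922.

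**Figure D4:**
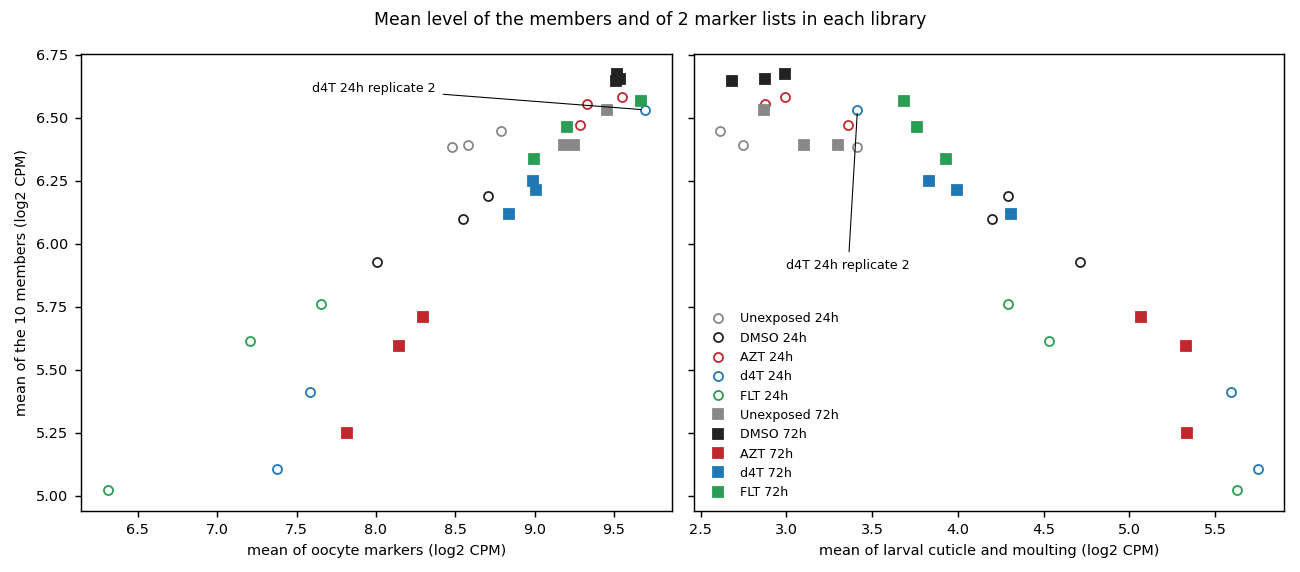
Mean log2 CPM of the 10 genes (y axis) against the mean log2 CPM of 16 oocyte markers (left) and of 15 larval cuticle and moulting genes (right) in each of 30 libraries. Circles are 24h and squares 72h, coloured by exposure. Members are higher where oocyte markers are higher (correlation 0.929) and lower where larval cuticle genes are higher (-0.932), and the library labelled d4T 24h replicate 2 (6.53) lies above the other d4T 24h libraries (5.41 at most) and has the highest oocyte mean of all 30 (9.69).

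Outside the members, the genes whose log2 CPM was most like each member over 30 libraries were looked up among 16038 genes. *Rad-51* was nearest to *bath-41* (0.986) and *egg-2* (0.985), an egg surface gene. *Brc-2* was nearest to the kinase *air-2* (0.979) and the primase *pri-1* (0.977), and *brd-1* to T24H10.1 (0.965), *rpn-9* (0.960) and the polymerase subunit *div-1* (0.959). *Brc-1* had R148.4 (0.973) and *nars-2* (0.969). For the mismatch genes the nearest were *hira-1* (0.993) for *msh-2*, *mip-2* (0.979) and the kinase *plk-2* (0.977) for *msh-6*, F54D5.9 (0.984) for *mlh-1* and *cmtr-2* (0.968) for *pms-2*. *Exo-1* was nearest to the DNA ligase *lig-1* (0.988) and to *czw-1* (0.986), and *polq-1* to *clh-6* (0.972) and *ints-11* (0.972).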

How the data were processed

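Whole nematodes were sequenced in 30 libraries, and groups were taken from the deposited labels. The authors trimmed reads with Trimmomatic 0.32, aligned them to WBcel235 with TopHat2 2.0.8 and Bowtie2 2.1.0 after base calling with CASAVA 1.8.2, counted them per gene with HTSeq, and deposited raw counts. The strand setting is not given in the sources used here, and the study tested with DESeq. In each file 5 entries hold reads not counted for any gene, for whatever reason. They were summed without separating the reasons (10.5 to 26.5% of all, median 14.5%), and were left out of totals and tests. No 2 libraries held the same values.

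Counts of all 30 libraries were fitted in 1 model with edgeR 4.0.16 (R 4.3.3). The steps were filterByExpr (minimum count 10, minimum total 15), TMM scaling, glmQLFit (robust) and glmQLFTest. The fit had 20 residual degrees of freedom and a common biological coefficient of variation of 0.240. Benjamini-Hochberg adjustment ran over 16048 genes, with a threshold of 0.01. For the 6 pairs of analogues p-values were also adjusted over all genes and pairs. Log2 CPM in correlations and list means carried a prior count of 2. The test was also run on simulated counts.

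The members and all lists were chosen with earlier results of these data known. All 10 members are named. From other lists the called genes with the smallest adjusted p are named, and beside each member up to 3 genes of the highest correlation. One list gene was not matched. Exon lengths and coordinates came from Ensembl release 115, while the study aligned to release 75 of the same build. Promoter and protein sequences were not analysed here.

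The results were recomputed with DESeq2 1.42.0, with relative log expression or library totals for scaling, without the filter, with a replicate block, with only the compared groups in the fit, against unexposed nematodes, and without each library in turn. A fit without both AZT 72h replicate 1 and d4T 24h replicate 2 was added after the data were seen.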

Additional observations from a re-analysis of the deposited data

Results flagged for a closer look

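The AZT effect differed between 24h and 72h by a test of that difference in all 10 genes, where 23.7% of all genes tested had a lower effect at 72h. The log2 fold change against DMSO at 72h minus that at 24h was -2.01 for *rad-51*, -2.08 for *brc-2*, -1.33 for *brc-1* and -1.16 for *brd-1*. It was -1.23 for *polq-1*, -1.72 for *msh-2*, -1.98 for *msh-6*, -1.43 for *mlh-1*, -1.15 for *pms-2* and -1.79 for *exo-1* (median -1.57, against 0.55 over all genes tested). With unexposed nematodes as the control the median was -1.09 and 2 of 10 passed edgeR's test, *polq-1* and *mlh-1* (6.57% of genes), while 9 had an unadjusted p under 0.05. In the same test 15 of 16 oocyte markers were lower (median -2.36) and 13 of 15 larval cuticle genes higher (median 4.30), and their part in the result was not tested. The members' summed level was 979 to 1075 CPM in AZT 24h and 411 to 566 CPM in AZT 72h, against 644 to 791 CPM in DMSO 24h and 1098 to 1116 CPM in DMSO 72h, so that the controls moved between the times as well as the AZT libraries.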

How the results depend on the processing

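The fall of all 10 genes after 72h with AZT held for 8 to 10 of them under every alternative run, and every log2 value stayed negative. Elsewhere the number of genes called moved, and the cause was not tested unless the alternative's own construction gives it. Percentages in brackets are the share of all genes that passed in the same direction under the same setting. DESeq2 called 5 lower with FLT at 24h (12.9%), 2 higher with d4T than FLT at 24h (8.84%), 4 lower with AZT than d4T at 72h (10.6%) and 1 with a higher FLT effect at 72h than at 24h (9.11%). A fit of the compared groups alone, which has fewer libraries and its own spread, called 4 higher with AZT (13.2%) and 0 lower with FLT (4.5%) at 24h, and 9 lower with d4T (24.6%) and 1 lower with FLT (8.62%) at 72h. It called 3 lower with DMSO than unexposed at 24h (16.6%) and 6 higher at 72h (21.7%). At 24h it called 0 between AZT and d4T and 0 between d4T and FLT, as for all genes (0%), and at 72h 7 lower with AZT than d4T (14.6%) and 3 lower with d4T than FLT (11.5%). Over time it called 3 in unexposed nematodes (2 higher, 1 lower, 42.4% in either direction), 7 with DMSO (23.5%) and 2 for the difference of FLT effects (8.63%). Without the filter 5 were lower with FLT at 24h (7.09%), 1 was lower with AZT than d4T at 72h (2.09%) and 1 differed in FLT effect (4.3%). Relative log expression scaling called 1 between AZT and d4T at 24h (7.55%) and 1 for the difference of FLT effects (6.79%).

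Scaling by library totals called 1 with FLT at 24h (5.89%), 0 with d4T at 72h (3.17%), 0 between d4T and FLT at 24h (5.84% in either direction), 1 over time in unexposed nematodes (13.6%), 3 lower over time with AZT (9.7%), 3 higher with d4T (19.6%) and 1 for the difference of FLT effects (5.66%). It shifted the median log2 fold change of all genes by 0.31 for AZT at 72h, 0.27 for d4T at 72h and 0.18 for FLT at 24h. Relative to that median the members stood at -1.45 in AZT 72h under both scalings. With unexposed nematodes as the control 2 were lower with d4T (12.7%) and 8 with FLT (12.3%) at 24h, 0 with d4T at 72h (0.106%), and the difference between times was called for 2 with AZT (6.57%) and 2 with FLT (6.85%). For AZT at 24h *pms-2* (-0.24), *msh-2* (-0.14), *exo-1* (-0.066) and *polq-1* (-0.038) were then on the other side of 0.

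Equal replicate numbers did not pair the libraries, since 19 of 135 such pairs correlated over 0.1 (range -0.435 to 0.555). With a replicate block 0 were called between d4T and FLT at 24h (4.8% in either direction), and AZT and FLT at 72h had 8 of 10 (18.1%). Without both AZT 72h replicate 1 and d4T 24h replicate 2, an alternative chosen after seeing the data, 10 fell with d4T at 24h (27.6%), 10 were higher with AZT than d4T at 24h (31.1%), 0 differed between d4T and FLT at 24h (19.7% in either direction), 6 were lower with AZT than d4T at 72h (11.4%), 9 rose over time with d4T (25.3%) and 1 had a higher d4T effect at 72h (14.5%).

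With 1 library left out the counts ranged from 0 to 10 for d4T against DMSO at 24h (1.13 to 22.2%), 0 to 4 for FLT at 24h (3.91 to 9.69%, 0 without DMSO 24h replicate 2), 8 to 10 for AZT at 72h (15.6 to 22.8%) and 0 for d4T at 72h (2.78 to 3.8%). At 24h they ranged from 0 to 10 for AZT against d4T (0.0796 to 31%), 5 to 9 for AZT against FLT (11.9 to 17.3%) and 0 to 2 for d4T against FLT (1.18 to 7.96%). At 72h they were 0 (0.424 to 5.2%), 4 to 7 (12 to 18.4%) and 0 to 1 (3.09 to 4.34%). Over time they were 0 to 2 with DMSO (6.85 to 12.7%), 7 to 10 with AZT (17.3 to 24.6%), 0 to 9 with d4T (5.4 to 24.7%) and 2 to 9 with FLT (9.88 to 15.7%). The difference of effects had 9 to 10 with AZT (19.7 to 25.2%) and 0 to 1 with FLT (3.41 to 6.11%). Where 2 libraries remain, they are taken to vary like the other groups.

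Signs turned only for values that did not pass. For d4T against DMSO at 24h *msh-6* had 0.017 under relative log expression scaling and by DESeq2 and 0.044 in the fit of the compared groups alone. With libraries left out it ran from -0.80 to 0.24, *rad-51* from -0.98 to 0.18, *msh-2* from -0.99 to 0.15 and *brc-2* from -0.998 to 0.016, the low ends being without replicate 2. Over time with d4T *brc-1* ran from -0.15 to 0.63, *msh-6* from -0.14 to 0.91 and *polq-1* from -0.0025 to 0.65, and the d4T difference of *exo-1* between times from -0.15 to 0.88. Counting error was 1.31 to 5.86% for a gene in a library.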
